A study of Rattus norvegicus with 12 samples.

Results

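Levels of RNA were compared between rat cultures whose arrays carried an ES-like profile and cultures whose arrays carried a fibroblast profile. The ES-like side held the 4 arrays titled DAC2 and FHH-REF2, and the fibroblast side held the 4 arrays titled DAC8 and FHH-REF1. They were 8 of the 12 arrays and 4 of the 6 lines of the series, with 2 arrays per line. The sides follow the measured profile and not the label: DAC2 and DAC8 are labelled embryonic stem (ES) lines, REF1 and REF2 are labelled embryonic fibroblast (EF) cultures, and each side mixes 1 line of each label. The sides were chosen from the levels themselves. Every difference between them is therefore a description and carries no test. Tests were made only on the 2 contrasts that are independent of that choice, which compare labels within a side and the size of the side difference between labels.

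The series measured total RNA on single-colour arrays of 31099 probe sets, and was made to ask whether rat induced pluripotent stem (iPS) lines resemble ES lines. DAC2 and DAC8 carry positive labels for the surface antigen SSEA-1 and for the factors Oct4, Nanog and Sox2, and were grown in 2i medium and taken 5 days after passage. Their strain is not among the labels. REF1 and REF2 are labelled as fibroblasts of the FHH strain from e14.5 embryos, grown in MEF medium and taken 6 days after passage. All groups used about 100 ng of RNA, and neither separate cultures for the 2 arrays of a line nor the removal of feeder cells is stated.

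Rodent ES cells grow as compact epithelial colonies. They hold the pluripotent state through a network of transcription factors and through signals that block MEK and activate the Wnt pathway, which is what the inhibitors of 2i medium do. Rodent ES cells also take glycine and one-carbon units from threonine through threonine dehydrogenase. Embryonic fibroblasts are mesenchymal cells that attach through integrins, pull on their surroundings with actin and myosin, and secrete and crosslink collagen. RNA of a bulk culture sums over its cells, so fewer cells of a type and less RNA per cell cannot be told apart.

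The arrays were comparable in their spread of levels, with medians from 5.28 to 5.41 on the log2 scale and 53.6% to 54.6% of probe sets at 5 or above. The labels went against the profiles. Pearson correlations across 10696 genes, which are not independent replicates, averaged 0.973 between DAC2 and REF2 and 0.987 between DAC8 and REF1. They were 0.597 to 0.604 between lines of different sides. For beta-actin, the 3' probe set exceeded the 5' one by 0.88 to 1.05 log2 units on the ES-like side and by 0.42 to 0.52 on the fibroblast side. The same gap overlapped between the sides for GAPDH (-0.12 to -0.07 and -0.10 to 0.04) and hexokinase (1.84 to 2.34 and 1.71 to 2.27). Such gaps are read as a sign of RNA quality, and the part of the beta-actin gap in the results below was not tested. Levels below 5 may be background. Where a side lies there, the difference is at best a lower bound, and the order of such genes, where they are listed or plotted by size, has no meaning.

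Of 14218 genes named on the array, 10696 reached 5 in the mean of at least 1 line and 3522 did not. A gene was counted as different where the side means lay at least 2-fold apart and the 4 arrays of one side all lay above the 4 of the other. By this count 2176 genes (20.3%) were higher on the ES-like side and 2178 (20.4%) were lower. Counts in the gene lists below are to be read beside these shares of the genes that reached 5. Without any 1 of the lines the counts were 2177 to 2245 higher and 2130 to 2247 lower. At 4-fold the split was uneven, with 733 genes higher and 1160 lower. At 64-fold 44 genes were higher and 113 lower. In 610 of the higher genes and 863 of the lower genes the other side was below 5. The median difference over all genes was 0.18 log2 units, with quartiles of -0.71 and 0.83.

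The markers that define the profiles were at opposite ends of the measured range. Tdh, which encodes threonine dehydrogenase, measured 12.45 and 12.43 in DAC2, 12.90 and 12.88 in REF2, 3.69 and 3.57 in DAC8 and 3.21 and 3.58 in REF1. The adhesion molecule Epcam, found on epithelia, measured 11.88 and 11.80 in DAC2, 11.60 and 11.50 in REF2, 3.17 and 2.52 in DAC8 and 3.07 and 2.93 in REF1. Cdh1, which encodes E-cadherin, measured 11.15 ± 0.05 on the ES-like side and 2.76 ± 0.18 on the fibroblast side (log2 level, mean ± SD, n = 4). All 3 genes were high on the 4 ES-like arrays and below 5 on the 4 fibroblast arrays.

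The fibroblast markers showed the reverse. Periostin, a matrix protein encoded by Postn, measured 4.0 and 3.59 in DAC2, 3.40 and 3.51 in REF2, 13.64 and 13.58 in DAC8 and 13.71 and 13.76 in REF1. Grem1, a secreted antagonist of bone morphogenetic proteins (BMPs), measured 2.24 and 2.35 in DAC2, 2.40 and 2.24 in REF2, 12.45 and 12.37 in DAC8 and 12.29 and 12.29 in REF1. Lox, the enzyme that crosslinks collagen and elastin, measured 2.51 ± 0.14 on the ES-like side and 12.23 ± 0.23 on the fibroblast side (log2 level, mean ± SD, n = 4). On each side the line labelled ES and the line labelled EF lay together for these 6 genes. All 6 were used to describe the sides when they were chosen, so they support nothing beyond that choice.

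Promoter windows were given for Epcam, Grem1 and Postn among the markers. The 150 bases before each start are shown to set a marker of the ES-like side beside fibroblast markers, from RefSeq on the assembly GRCr8 and in the direction of the gene, with CpG dinucleotides in capitals. The windows lie at chr6:12649679-12649828 (minus strand) for Epcam, chr3:120978320-120978469 (minus strand) for Grem1 and chr2:140677911-140678060 (plus strand) for Postn.
Epcam: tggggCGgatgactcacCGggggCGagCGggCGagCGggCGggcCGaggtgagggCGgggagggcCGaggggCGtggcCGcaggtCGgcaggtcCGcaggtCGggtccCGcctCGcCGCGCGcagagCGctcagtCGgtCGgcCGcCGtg
Grem1: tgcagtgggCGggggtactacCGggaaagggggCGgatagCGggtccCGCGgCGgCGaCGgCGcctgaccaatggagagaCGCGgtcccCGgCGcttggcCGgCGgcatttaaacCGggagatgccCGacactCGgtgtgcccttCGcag
Postn: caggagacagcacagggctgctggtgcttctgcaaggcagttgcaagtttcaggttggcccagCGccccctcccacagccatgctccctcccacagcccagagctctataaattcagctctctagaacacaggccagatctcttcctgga
Epcam had 25 CpG dinucleotides in this stretch and Grem1 had 20, while Postn had 1 and held the letters TATAAA from 44 to 39 bases before its start. Both fibroblast markers were below 5 on the ES-like side, one with a CpG-rich window and the other with a CpG-poor one.

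Over larger groups the windows of higher and lower genes differed little in CpG content. A window of 300 bases, from 250 before the start to 50 after it, was given for 1701 of the higher genes and 1607 of the lower genes. The median ratio of observed to expected CpG was 0.761 in the higher genes, 0.725 in the lower genes and 0.784 in all 8359 genes with a window. In the 5051 genes counted as neither it was above both, at 0.806. Collagen and matrix genes had a median ratio of 0.469 over 19 windows, and genes of the cell cycle 0.896 over 25. The letters TATAAA, on either strand, were in 8.09% of windows of the lower genes, 5.58% of those of the higher genes and 6.35% of all. In the same order, TGACGTCA was in 2.12%, 4.23% and 3.4%, GGGCGG in 66.4%, 62.1% and 64.8%, and CACGTG in 8.9%, 10.3% and 10%. TGANTCA, with N any base, was in 5.54%, 5.82% and 4.68%. ATGCAAAT was in 1.37%, 1.47% and 1.23%. The CArG box, CC and GG around A or T bases, was in 1.68%, 1.65% and 1.28%. GGAATG was searched as well and is given below.

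**Figure D1:**
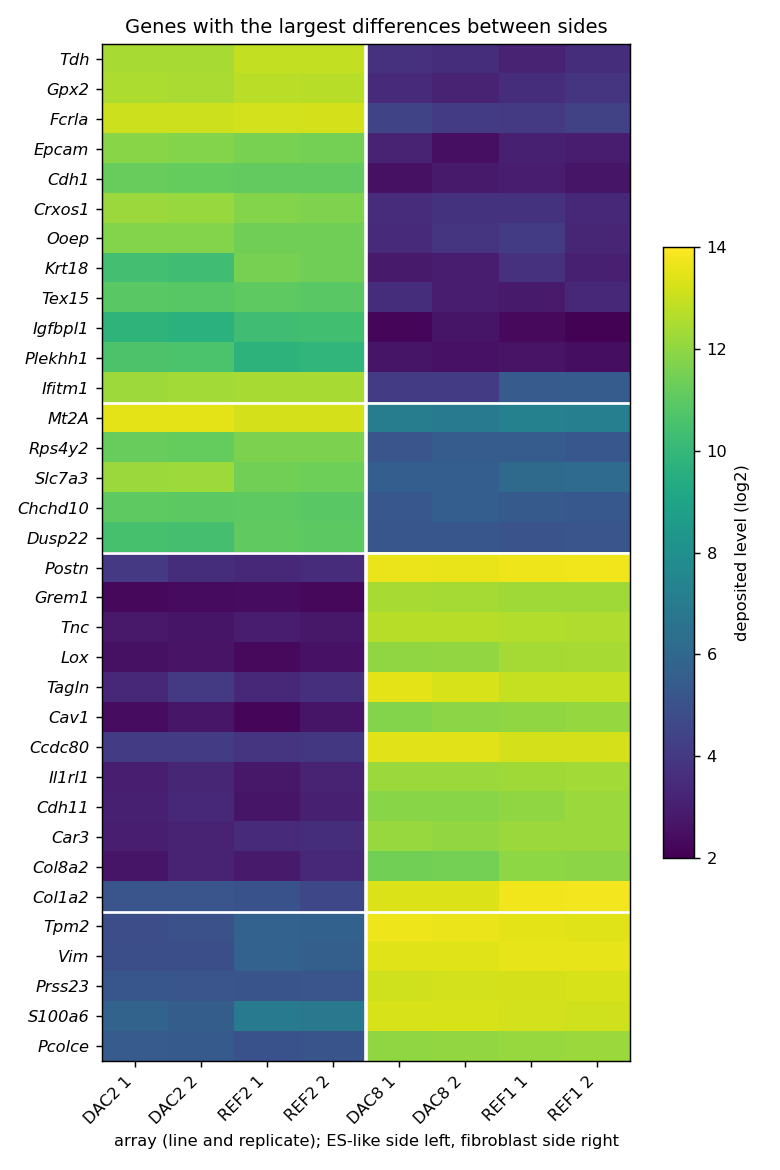
Deposited log2 levels (colour) of the genes with the largest differences (vertical axis) on each of the 8 arrays (horizontal axis). From top to bottom the white lines part the 12 largest higher on the ES-like side, the 5 largest higher with both side means at 5 or above, and the same 2 sets for lower genes. Within a side the DAC and REF arrays share their colour, as for Tdh at 12.43 to 12.90 against 3.21 to 3.69.

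Genes of the pluripotency network were higher on the ES-like side as a group. Of 33 listed genes 17 had a value, 15 passed the filter, 14 were higher and 0 were lower, with a median difference of 3.83 over the 17 against 0.18 over all genes. Sox2, a core factor, measured 11.52 and 11.44 in DAC2, 11.53 and 11.60 in REF2, 4.73 and 4.85 in DAC8 and 3.67 and 4.05 in REF1. Sall4, a zinc finger factor that works with it, measured 10.62 ± 0.23 on the ES-like side and 3.42 ± 0.30 on the fibroblast side (n = 4). The naive factors Tfcp2l1 and Esrrb differed by 5.81 and 5.77, and Klf5 by 4.26.

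Some members were also present on the fibroblast side. Klf4, counted as higher, measured 9.8 and 8.2 as side means and Klf2, also counted, 12.2 and 10.1, so that the fibroblast side also held well measured RNA of these Krüppel-like factors. Fbxo15 differed by 0.71, and Otx2 and Nr0b1 were below 5 on both sides. Lin28a, an RNA-binding protein that blocks let-7 maturation, varied within the ES-like side, at 9.73 and 9.62 in DAC2 and 8.21 and 8.12 in REF2. Pou5f1 and Nanog were not analysed here.

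The epithelial list moved in the same direction. Of 24 genes with a value 23 passed the filter, 20 were higher and 1 was lower, with a median of 2.69. Beyond Epcam and Cdh1, the keratins Krt18, Krt8 and Krt19 differed by 7.78, 4.22 and 3.98. The desmosomal plaque gene Dsp differed by 5.26, the tight junction gene Ocln by 3.84 and the connexin Gjb5 by 5.51. Krt18 was higher in REF2 (11.55 and 11.40) than in DAC2 (10.40 and 10.32), and Gjb5 was higher in DAC2 (9.09 and 8.95) than in REF2 (7.85 and 7.74). The exception was Jup, plakoglobin, which binds both E-cadherin and N-cadherin: its side means were 7.0 and 9.3.

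Genes outside these lists were among the 12 with the largest measured difference in each direction. Gpx2, a glutathione peroxidase of epithelia, measured 12.62 ± 0.13 against 3.52 ± 0.25. Fcrla, an Fc receptor-like gene, measured 13.15 ± 0.06 against 4.26 ± 0.19. Ooep, an oocyte-expressed gene of the subcortical maternal complex, measured 11.58 ± 0.22 against 3.68 ± 0.38, and Tex15, a gene of the germline, 10.93 ± 0.05 against 3.16 ± 0.34 (log2 level, mean ± SD, n = 4 for each). Crxos1, Igfbpl1, Plekhh1 and Ifitm1 differed by 8.36, 7.72, 7.64 and 7.58.

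Where both sides were measured at 5 or above, the difference can be given as a fold. Mt2A, a metallothionein, measured 13.52 and 13.52 in DAC2, 13.22 and 13.22 in REF2, 7.09 and 6.97 in DAC8 and 7.25 and 7.16 in REF1, a 76.1-fold difference. Slc7a3, a carrier of arginine and lysine, was 60.8-fold higher on the ES-like side, and Chchd10, a mitochondrial protein, 49.2-fold. Dusp22, a phosphatase, was 48.0-fold higher, with a mean of 5.16 ± 0.07 on the fibroblast side. The probe set named Rps4y2, which RefSeq places on chromosome 4, was 66.7-fold higher.

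Genes of the extracellular matrix were mostly lower on the ES-like side. Of 31 genes with a value 30 passed the filter, 24 were lower on the ES-like side and 3 were higher, with a median of -5.71. Col1a2, a chain of type I collagen, measured 5.18 and 5.17 in DAC2, 5.03 and 4.58 in REF2, 13.37 and 13.37 in DAC8 and 13.73 and 13.80 in REF1. Tnc, tenascin C, measured 2.79 ± 0.09 on the ES-like side and 12.66 ± 0.08 on the fibroblast side, and Fbn1, the microfibril protein fibrillin, 3.75 ± 0.20 and 12.24 ± 0.33 (n = 4). Col1a1, Col3a1 and Col5a2 differed by -7.91, -8.39 and -8.31.

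The matrix was not uniformly lower in the ES-like lines. Fbln1, fibulin 1, had side means of 8.5 and 4.3 and was higher by 4.19, and Fmod, which binds collagen fibrils, and Mfap5 were higher by 2.16 and 1.92. Nid1, a linker of basement membranes, differed by only -0.06 at levels of 12.1 and 12.1, and Fn1, fibronectin, by -1.03 at levels of 12.2 and 13.2. Lama1, the laminin chain of embryonic basement membranes, was on the ES-like side at 10.50 ± 0.04 and below 5 on the fibroblast side at 4.31 ± 0.30 (n = 4). Dcn, decorin, a common marker of fibroblasts, was below 5 on both sides at 3.1 and 2.8.

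Enzymes that process the matrix followed the collagens. Of 24 with a value 21 passed the filter, 19 were lower on the ES-like side and 0 were higher, with a median of -4.08. Lox, Loxl2, Loxl1 and Loxl3, the lysyl oxidases, differed by -9.71, -7.34, -6.06 and -4.82. Pcolce, which enhances procollagen cleavage, measured 5.24 ± 0.19 and 12.11 ± 0.07 (n = 4), a 117-fold difference. The collagen chaperone Serpinh1 differed by -5.20 and the gelatinase Mmp2 by -8.51. Timp1 and Timp3, inhibitors of metalloproteinases, differed by -0.71 and 0.10 at levels above 9 on both sides.

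Contractile and cytoskeletal genes were lower on the ES-like side in 21 of 24, with 0 higher and a median of -4.86. Tagln, which encodes an actin-binding protein of smooth muscle and myofibroblasts, measured 3.34 and 4.03 in DAC2, 3.37 and 3.60 in REF2, 13.51 and 13.26 in DAC8 and 12.92 and 12.93 in REF1. Vim, vimentin, differed by -8.19 and Tpm2, a tropomyosin, by -8.22. Both were below 5 in DAC2 and above it in REF2: Vim measured 4.87 and 4.89 against 5.78 and 5.62. Cnn3, Des and Csrp2 differed by 0.05, 0.06 and -0.71. The smooth muscle genes Cnn1, Actg2 and Acta2 differed by -8.41, -8.27 and -5.30.

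The YAP coactivator acts with TEAD factors when cells spread and pull. A list of YAP targets and matricellular genes was lower on the ES-like side in 12 of 13, with a median of -3.97. Ccn1, a matricellular protein, measured 6.86 and 6.73 in DAC2, 6.60 and 6.33 in REF2, 12.22 and 12.27 in DAC8 and 12.13 and 12.11 in REF1, a 46.8-fold difference. Ccn4 and the receptor kinase Axl differed by -7.31 and -6.07. Ajuba was the member that was not counted, at -0.82. Ccn2 was still well measured on the ES-like side, with means of 9.6 and 13.8.

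The letters GGAATG, the core that TEAD factors bind, were searched on both strands of the promoter windows. They were in 14.4% of windows of genes lower on the ES-like side, 10.3% of those of genes higher there and 11.1% of all. They were in 5 of the 7 windows of the YAP and matricellular list (Ccn1, Ccn2, Amotl2, Ajuba and Nuak2). Of the 19 contractile windows 7 held them (Acta2, Tagln2, Tpm1, Anxa1, Anxa2, Flna and Vcl). A match is a string of letters and was not shown to be a bound site. A stretch of 100 bases is shown for 3 of these genes to show where the letters lie, in the direction of the gene with the match in capitals (CATTCC is the match on the other strand), from RefSeq on GRCr8. They span chr2:237225720-237225819 (minus strand) for Ccn1, chr13:87499228-87499327 (plus strand) for Tagln2 and chr8:76543421-76543520 (minus strand) for Tpm1.
Ccn1: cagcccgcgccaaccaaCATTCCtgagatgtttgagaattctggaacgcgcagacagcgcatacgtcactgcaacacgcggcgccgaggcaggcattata
Tagln2: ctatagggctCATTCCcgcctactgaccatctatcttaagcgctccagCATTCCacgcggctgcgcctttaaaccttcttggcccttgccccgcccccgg
Tpm1: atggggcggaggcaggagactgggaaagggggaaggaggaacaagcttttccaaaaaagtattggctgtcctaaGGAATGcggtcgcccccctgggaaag
Tagln2 had 2 matches and differed by -1.64, while Tpm1 had 1 and differed by -5.26.

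**Figure D2:**
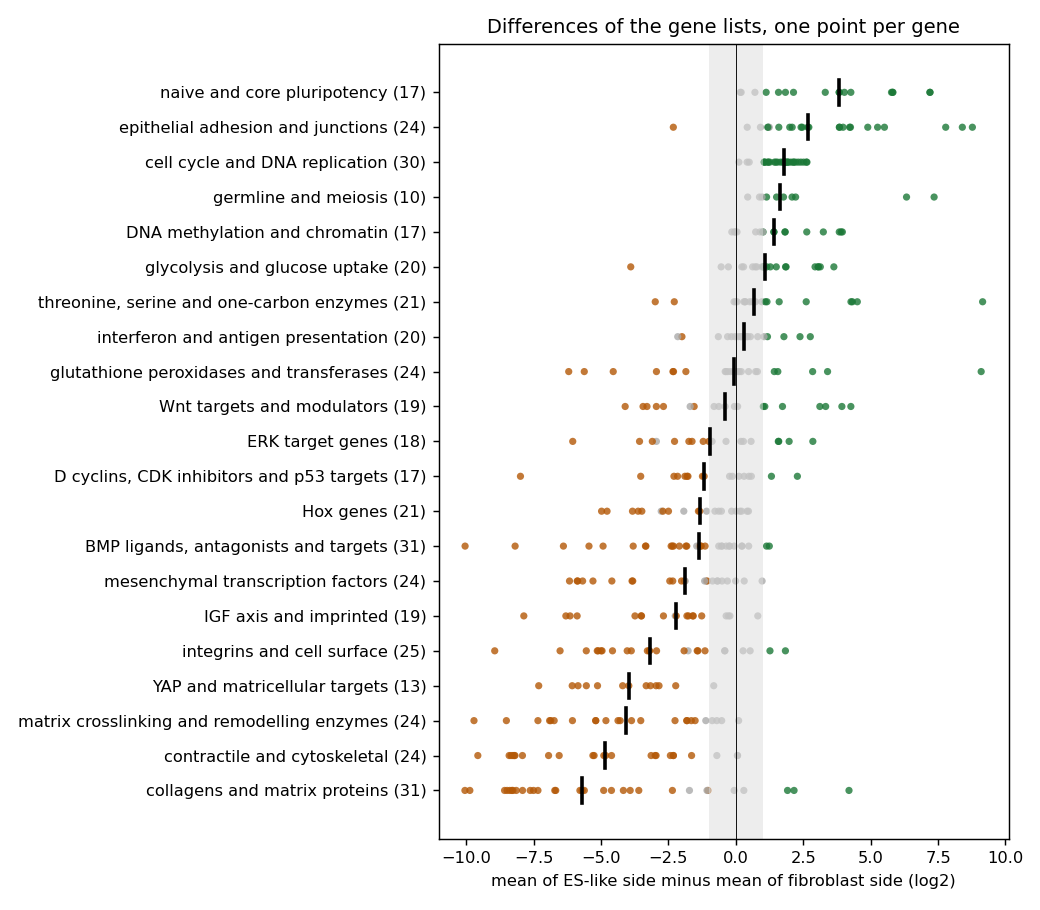
Difference of each gene between side means in log2 units (horizontal axis, positive where the ES-like side is higher) for 21 gene lists (vertical axis, number of genes with a value in brackets). Green and orange points are genes counted as higher or lower, grey points are neither, black bars are medians over genes with a value and the grey band is under 2-fold; medians run from -5.71 for matrix genes to 3.83 for pluripotency genes.

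Integrins and other cell surface genes had 25 members with a value, of which 23 passed the filter. On the ES-like side 18 were lower and 2 were higher, with a median of -3.20. Cdh11, a cadherin of mesenchyme, measured 3.04 ± 0.30 and 11.98 ± 0.15 (n = 4), while its other 2 probe sets differed by -5.08 and by 0.24, the latter near 5 on both sides. Thy1, a fibroblast surface marker, differed by -6.52, and the integrin subunits Itga1, Itgb3 and Itgav by -5.55, -5.00 and -2.94. The exceptions were Pdpn, podoplanin, with means of 11.7 and 10.5, and Itga7, a laminin receptor subunit, with 8.2 and 6.4. Pdgfra, a receptor of mesenchymal cells, was lower in DAC2 (4.46 and 4.26) than in REF2 (6.26 and 6.47).

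Of 24 mesenchymal transcription factors with a value 20 passed the filter, 13 were lower and 0 were higher, with a median of -1.89. Prrx2, Prrx1 and Zeb2 differed by -6.17, -5.89 and -5.87, and Twist1 by -5.30. Zeb1 and Snai1, repressors of E-cadherin, differed by less, at -2.34 and -1.91, and both were at 5 or above on the ES-like side. Msx1 differed by -0.01 and Tcf4 by -0.69. Of 21 Hox genes, which encode position along the body, 18 passed the filter. Among these 9 were lower, with Hoxd10 at -4.98, Hoxc8 at -4.78 and Hoxa5 at -3.84, and 0 were higher. Hoxa7, Hoxa9, Hoxa10 and Hoxa11 did not follow the sides and are described with the lines.

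Signals were arranged differently from pathway to pathway. The BMP and TGF-beta list had 31 genes with a value, of which 29 passed the filter, with a median of -1.37. On the ES-like side 18 were lower and 2 were higher, against 20.4% and 20.3% of all genes. Among the lower genes were ligands, antagonists and matrix-bound regulators, such as Grem1, Tgfb3 at -8.19, Ltbp1 at -6.40, Fst at -3.81 and Nog at -3.34. The receptor gene Bmpr2, the decoy receptor gene Bambi and the signal transducer Smad9 were lower too, at -2.31, -1.82 and -2.36. The 2 higher genes were the ligands Bmp4, at 10.4 and 9.2, and Bmp7, at 6.0 and 4.9. Target genes were mixed: Id3 and Id4 differed by -1.85 and -1.28, while Id1 and Smad7 differed by -0.24 and -0.06.

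Wnt genes were split, with a median of -0.40. Of 19 with a value 17 passed the filter, 7 were higher on the ES-like side and 6 lower, against 20.3% and 20.4% of all genes. Those higher were transcription factors and targets, and the ligand gene Wnt5b at 1.02. Lef1, a factor that partners beta-catenin, measured 9.85 and 9.82 in DAC2, 10.16 and 10.10 in REF2, 5.85 and 5.59 in DAC8 and 5.75 and 5.69 in REF1. Cdx2, Axin2 and Cdx1 differed by 3.93, 3.33 and 3.11. Those lower were mostly secreted modulators, with Dkk2 at -4.11, Dkk3 at -3.44 and Sfrp2 at -2.95.

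Genes downstream of ERK differed in both directions. Of 18 with a value 16 passed the filter, 4 were higher and 8 lower, against 20.3% and 20.4% of all genes. The median was -0.94. The immediate early gene Egr1 measured 3.65 and 3.80 in DAC2, 5.09 and 4.86 in REF2, 10.40 and 10.28 in DAC8 and 10.42 and 10.50 in REF1. Jun, Dusp6 and Spry4 differed by -3.57, -2.28 and -1.21. Etv5, Etv4, Spry2 and Dusp5, which ERK is also known to induce, were higher by 2.85, 1.97, 1.59 and 1.57.

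Of 30 cell cycle and replication genes 27 were higher on the ES-like side and 0 were lower, with a median of 1.79 and no difference above 2.64. Top2a, a topoisomerase of dividing cells, measured 11.21 and 11.18 in DAC2, 11.29 and 11.29 in REF2, 8.73 and 8.68 in DAC8 and 8.58 and 8.54 in REF1. Mki67 and Pcna differed by 1.19 and 1.05, and Mki67, a marker of dividing cells, was still at 9.3 on the fibroblast side. E2f1, Ccne1 and Rrm1 differed by less than 2-fold.

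Among D cyclins, inhibitors of cyclin-dependent kinases and targets of p53, 9 of 17 were lower on the ES-like side and 2 were higher. Ccnd2, cyclin D2, measured 4.10 ± 0.27 on the ES-like side and 12.09 ± 0.17 on the fibroblast side, while Ccnd1 and Ccnd3 differed by 1.32 and 0.11. The inhibitor Cdkn1a measured 7.86 ± 0.06 and 11.39 ± 0.27 (n = 4), an 11.6-fold difference. Cdkn2a and Cdkn2b differed by -2.16 and -1.78. Cdkn1b differed by -0.13.

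Enzymes of threonine, serine and one-carbon metabolism differed unevenly. Of 21 with a value 20 passed the filter, 8 were higher on the ES-like side and 2 lower, against 20.3% and 20.4% of all genes. The median was 0.68. After Tdh, the largest differences were in Gcat, the next enzyme of threonine breakdown, and in Amt and Gldc of the glycine cleavage system. Gcat measured 9.26 and 9.20 in DAC2, 10.00 and 9.96 in REF2, 5.17 and 5.07 in DAC8 and 4.84 and 5.33 in REF1. It differed by 4.50, Amt by 4.32 and Gldc by 4.27, with Gcat and Gldc near 5 on the fibroblast side. Shmt2, Mthfd2 and Phgdh differed by 0.30, 0.34 and -0.01, and Mthfd2l and Aldh1l2 differed by -2.99 and -2.29.

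Glycolysis genes were higher in 11 of 20 and lower in 1, against 20.3% and 20.4% of all genes, with a median of 1.08. Slc2a1, a glucose carrier, was 12.4-fold higher, Hk2, a hexokinase, 8.76-fold and Ldhb, a lactate dehydrogenase subunit, 8.31-fold. The enolases were unlike: Eno1 differed by 0.97 and Eno2 by -3.90. The kinase Pdk1 was higher by 2.94, but a second probe set of the gene differed by -0.12. Of 24 glutathione genes 20 passed the filter, 5 were higher, Gpx2 among them, and 7 were lower, against 20.3% and 20.4% of all genes. Those lower included Mgst2 at -6.20, Gstm5 at -5.62 and Gpx7 at -4.55.

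Chromatin and germline genes were higher on the ES-like side or did not differ by this count. Of 17 genes of DNA methylation and chromatin 10 were higher and 0 were lower. Tet1, which oxidises methylcytosine, measured 8.77 ± 0.09 and 4.94 ± 0.20, and Jarid2, a Polycomb cofactor, 11.65 ± 0.17 and 7.75 ± 0.28 (n = 4). Uhrf1 and Dnmt1, which maintain methylation, differed by 2.63 and 1.41, and the Polycomb genes Ezh2 and Eed by 0.73 and -0.15. Of 10 germline genes with a value 9 passed the filter and 7 were higher, against 20.3% of all genes. Rhox5, an X-linked homeobox gene, differed by 7.35 and Sycp3, of the synaptonemal complex, by 6.33.

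Genes of the insulin-like growth factor (IGF) axis and imprinted genes were lower on the ES-like side in 14 of 19, with 0 higher. Igf2, a growth factor expressed from the paternal allele, measured 5.99 and 5.94 in DAC2, 6.11 and 5.91 in REF2, 11.16 and 11.13 in DAC8 and 12.65 and 12.56 in REF1, although a second probe set differed by 0.43. Grb10, an imprinted adaptor that dampens insulin signalling, differed by -7.87, and Igfbp3, which binds IGFs, was 71.1-fold lower. Meg3 and Igfbp2 differed by -0.22 and -0.28. Interferon and antigen presentation genes were largely dim, with 10 of 20 passing the filter: Irf1 and Isg15 were higher by 2.76 and 2.38, and Tap1 differed by -2.0.

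The side difference could be measured in 2 ways, in the lines labelled ES and in the lines labelled EF, with no array in common. The median over 10696 genes was 0.19 for DAC2 minus DAC8 and 0.16 for REF2 minus REF1. The 2 differences had a Pearson correlation across genes of 0.953 and a Spearman correlation of 0.932, as a description, since the sides were chosen on these levels. They were at least 2-fold in 4391 and 4406 genes, and 3660 of these were at least 2-fold in both with the same sign. Of the 4354 genes counted as different, 3872 (88.9%) had differences that lay within 2-fold of each other. The SD over genes was 1.81 for the side difference and 0.29 for the label difference.

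**Figure D3:**
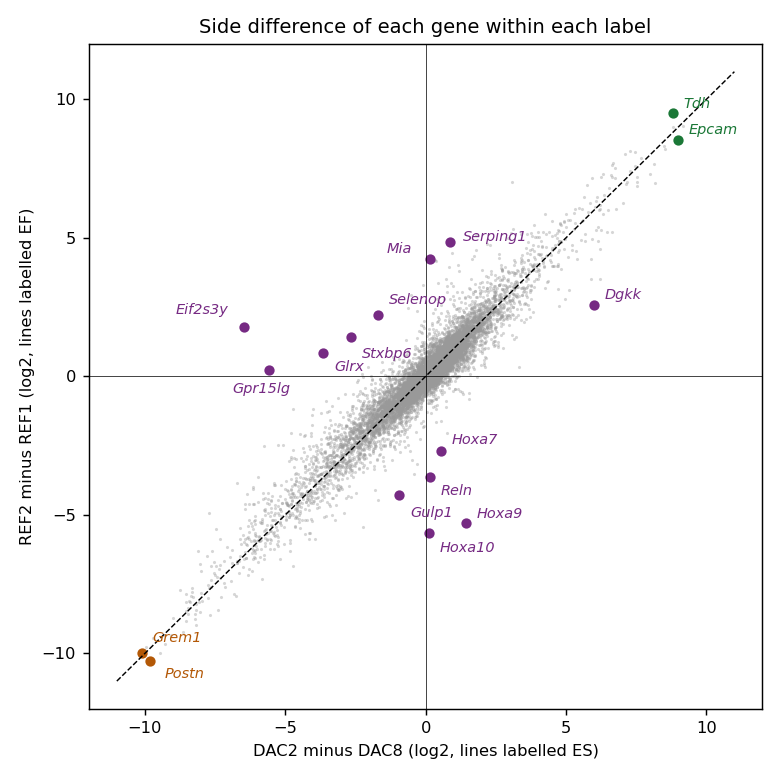
Side difference of each of 10696 genes (grey points) in the lines labelled ES (horizontal axis, DAC2 minus DAC8, log2) and in the lines labelled EF (vertical axis, REF2 minus REF1, log2), with equal differences on the dashed line. Markers in green and orange lie near that line. The purple genes are a selection of those far from it, with Hoxa9 at 1.44 and -5.31 and Eif2s3y at -6.46 and 1.80.

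The size of the side difference was tested between the labels, as (DAC2 minus DAC8) minus (REF2 minus REF1), with limma over all 12 arrays and the line as the factor. At a Benjamini-Hochberg adjusted p under 0.05 it differed in 4145 genes (38.8%), and in 698 (6.53%) by at least 2-fold. With 2 arrays per line these p-values measure only the spread between the arrays of a line, which may be technical. Only 4 genes were at least 2-fold different in both pairs with opposite signs, and these were Eif2s3y, Hoxa9, Stxbp6 and Selenop. Each is a difference between single lines and not between sides.

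Hoxa9, a posterior homeobox gene, measured 9.47 and 9.43 in DAC2, 3.15 and 3.10 in REF2, 8.0 and 8.0 in DAC8 and 8.49 and 8.38 in REF1. The pairs differed by 6.75 ± 0.11 (log2 difference ± SE, limma adjusted p = 5.47e-09). Its neighbour Hoxa10 measured 8.97 and 8.95 in DAC2 and 3.18 and 3.14 in REF2, against 8.79 to 8.87 in DAC8 and REF1, and the pairs differed by 5.80 ± 0.13 (limma adjusted p = 3.16e-08). Hoxa7 and Hoxa11 showed the same order, with 7.32 and 7.24 against 5.08 and 4.74 in DAC2 and REF2 for Hoxa7. DAC2 thus held these Hoxa genes as high as the fibroblast side did, and REF2 did not. Hoxa5 was between, at 7.06 and 6.56 in DAC2 and 4.08 and 4.09 in REF2, and 9.0 to 9.61 on the fibroblast side.

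Among the 4 lines of the sides, other genes were low in DAC2 alone. Gpr15lg measured 5.08 and 4.80 in DAC2 and 9.77 to 10.55 in the other 3 lines, and Glrx, glutaredoxin, 4.75 and 4.22 in DAC2 and 8.10 to 9.10 in the others. The pairs differed by -5.82 ± 0.13 and -4.49 ± 0.19 (limma adjusted p = 2.86e-08 and 1.59e-06). Mia and Serping1, a complement inhibitor, were high in REF2 alone of these lines: Mia measured 8.28 and 8.12 there and 3.93 to 4.35 in the other 3, and Serping1 8.03 and 7.87 there and 3.01 to 4.19 in the other 3. The arrays labelled iPS were high for Serping1 as well, at 8.16 to 8.99. Their pairs differed by -4.08 ± 0.24 and -3.97 ± 0.23 (limma adjusted p = 7.93e-06 and 8.30e-06). Dgkk, Gulp1 and Reln differed between pairs by 3.41, 3.34 and 3.76.

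The label itself was tested within sides, as the mean of DAC2 and DAC8 minus the mean of REF2 and REF1. The profiles of the arrays labelled DAC8 and REF2 go against those labels, so this contrast compares arrays as labelled. Had the labels of these lines been exchanged, it would not compare ES lines with fibroblasts, and whether they were was not tested. The limma fit called 4412 genes (41.2%), 2131 higher and 2281 lower under the ES label, with a median size of 0.28 log2 units. Only 92 of them (0.86%) were called and at least 2-fold apart, 19 higher and 73 lower. When the 4 line means were taken as the replicates, limma called 0 genes at an adjusted p under 0.05, with 402 genes (3.76%) at an unadjusted p under 0.05 and a smallest adjusted p of 0.756. The calls of the first fit thus rest on the spread between arrays of a line. With only 4 line means the second fit had little power, so its lack of calls does not show that the labels are alike.

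H19, an imprinted noncoding RNA, had the smallest p of all genes when line means were the replicates. It measured 7.54 and 7.54 in DAC2, 10.28 and 10.23 in REF2, 9.97 and 10.03 in DAC8 and 12.37 and 12.22 in REF1. DAC2 minus REF2 was -2.72 and DAC8 minus REF1 was -2.29, and the label difference was -2.51 ± 0.05 (log2 difference ± SE, limma adjusted p = 8.65e-09). With line means it had an unadjusted p of 7.07e-05 in limma and an adjusted p of 0.756. Its arrays on the 2 sides overlapped, since REF2 exceeded DAC8, so H19 was not counted as different between sides.

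Fos, an immediate early gene, measured 3.50 and 3.64 in DAC2, 8.14 and 8.20 in REF2, 8.17 and 8.38 in DAC8 and 9.36 and 9.36 in REF1, a label difference of -2.84 ± 0.05 (limma adjusted p = 8.65e-09). DAC2 alone was low, and the limma adjusted p with line means was 0.955. Col6a3, a chain of type VI collagen, measured 8.82 and 8.78 in REF1 and 4.53 to 5.72 in the other 3 lines of the sides, DAC8 included. It was therefore a collagen that DAC8 did not share with REF1, and its adjusted p with line means in limma was 0.955.

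**Figure D4:**
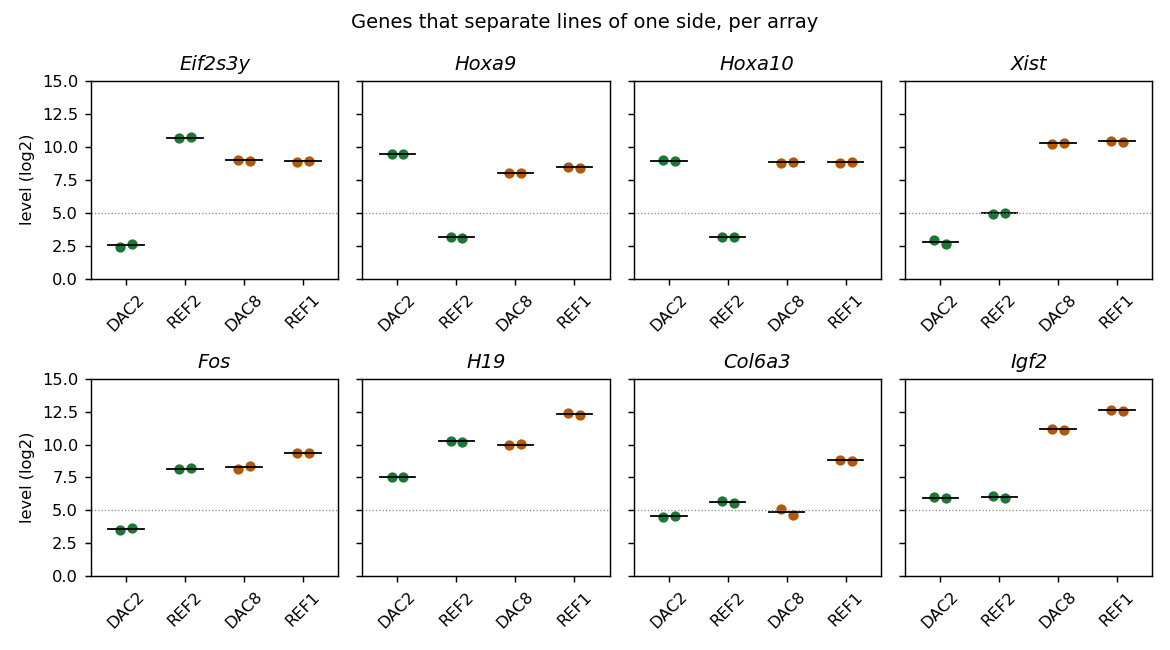
Deposited log2 level (vertical axis) of 8 genes on the 2 arrays of each line (horizontal axis), with ES-like lines in green, fibroblast-profile lines in orange, black bars at line means and a dotted line at 5. Among these 4 lines Hoxa9 and Hoxa10 are low only in REF2 and Eif2s3y only in DAC2, while H19 is higher in each REF line than in the DAC line of its side.

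Sex chromosome genes were read as a check of the lines. Xist, the RNA that coats an inactive X chromosome, measured 2.96 and 2.65 in DAC2, 4.88 and 5.01 in REF2, 10.23 and 10.29 in DAC8 and 10.48 and 10.40 in REF1. Eif2s3y, a Y-linked translation factor gene, measured 2.42 and 2.61 in DAC2, 10.67 and 10.74 in REF2, 9.02 and 8.93 in DAC8 and 8.86 and 8.95 in REF1. DAC8 and REF1 thus carried RNA of both genes, REF2 carried Eif2s3y with Xist near 5, and DAC2 was below 5 for both. The probe set named Uty measured 7.74 to 9.34 on all 8 arrays. RefSeq gives the X-linked Kdm6a as another name of this entry, so it was not read as Y-linked.

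X-linked genes were higher in DAC2 than in REF2, with a median of 0.42 log2 units over 334 genes, against -0.17 to 0.16 on the autosomes. Between DAC8 and REF1 the median on the X chromosome was 0.01. By sides, X-linked genes differed by a median of 0.36 in the lines labelled ES and -0.08 in those labelled EF, so the side difference of X-linked genes was not the same in both pairs. These medians are descriptions, and genes of a chromosome are not independent replicates.

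Markers of other cell types that a culture could hold were read on both sides. Neural markers were at 5 or above in 5 to 6 of 16 genes on the ES-like side and 7 to 8 on the fibroblast side, with summed log2 levels of 73.5 to 77.4 and 82.7 to 84.7. Gap43, Map2 and Nes differed by -4.35, -3.36 and -2.35, and the neural factors Pax6 and Neurod1 were below 5 on both sides. Of 13 endoderm markers 7 were below 5 in all 4 lines, Gata4 and Hnf4a among them, and summed levels were 56.8 to 63.4 and 58.0 to 59.0. Members went both ways within these sums, with 2 counted as higher on the ES-like side and 2 as lower. Lama1 differed by 6.19, and Dab2 and Pdgfra by -5.63 and -3.88. Among the 4 lines of the sides Sox17 passed 5 only in REF2, at 5.46 and 5.14, while the arrays labelled iPS measured 6.03 to 6.68. The other probe sets of Sox17 had side means below 5 and differed by 0.30 and 0.53.

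Trophoblast markers summed to 45.4 to 46.9 on the ES-like side and 36.3 to 37.2 on the fibroblast side, through Tfap2c and Cdx2 (the latter also in the Wnt list). Krt7 went the other way, at -3.28, and Elf5, Gcm1 and Plac1 were below 5 throughout. The 4 mesoderm markers summed to 20.5 to 22.3 and 16.1 to 16.8, through Eomes at 7.24 ± 0.50 and 2.88 ± 0.22 (n = 4). Endothelial markers summed to 42.5 to 44.4 and 36.4 to 37.9, with Pecam1, an adhesion molecule also found in ES cells, higher by 5.16 and Kdr and Emcn below 5. Muscle markers summed to 36.0 to 37.5 and 46.1 to 47.9 through Acta1 and Myl4, with Myod1 and Myog below 5. Cartilage and bone markers summed to 38.1 to 38.8 and 44.5 to 47.0 through Acan, Col2a1 and Spp1, while Alpl was higher on the ES-like side by 2.72. Blood markers summed to 43.9 to 45.1 and 46.6 to 47.4, with Cd14 at -3.12, Laptm5 at 1.06 and Ptprc below 5. Keratinocyte markers summed to 19.8 to 21.1 and 19.5 to 20.1, with Krt5 and Tp63 below 5. What part cells of these types had in the side differences was not tested.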

How the data were processed

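The deposited series table held log2 signals of 31099 probe sets on 12 arrays, made by the authors with tools that the submitters' processing notes give as RMA and Partek 6.2. RMA subtracts a modelled background, equalises arrays and combines the probes of a set, and so narrows differences of dim genes and of those near saturation. The sources used here do not say if all 12 arrays were equalised in one run. Values were used as deposited. Of the probe sets, 20832 had 1 gene symbol in the platform's table, 436 had several and 57 were controls. Of several probe sets of a gene the one with the highest mean over 12 arrays was kept, giving 14218 genes, 14168 of which were matched to RefSeq by gene identifier.

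Genes entered where the highest of the 4 line means was at least 5. Tests were made with limma 3.58.1 in R 4.3.3, with 6 lines as the factor, 12 arrays and Benjamini-Hochberg adjustment over 10696 genes, and were tested on simulated data. Replicate numbers were not used to pair the arrays in the main fit. Deviations of equal numbers correlated at -0.09 to 0.24 over 15 pairs of lines, over 0.1 in 3. Among the 4 lines of the sides they correlated at -0.0016 to 0.24 over 6 pairs, over 0.1 in 2, so a weak shared part is possible. Plots were drawn with matplotlib. The sides, members and gene lists were chosen with earlier results of these data known.

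Genes named were the 12 with the largest side difference in each direction, the 5 largest with both side means at 5 or above, the markers, up to 4 genes of each list, the 6 largest in each direction in each tested contrast and the sex chromosome genes. Other list members were named after their values were seen, to show the range of their list. Alternatives were no filter, a filter at 6, quantile normalization, equal medians, the mean of probe sets, a 4-fold threshold, only the 8 arrays, an intensity trend, a replicate block, and each array or line left out. Line means as replicates were added after the data were seen.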

Additional observations from a re-analysis of the deposited data

Results flagged for a closer look

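In 4 genes 1 array of a side stood apart from its other 3, which chance gives in about 1 in 20 groups. These were Tgfb3 at 3.50 on an ES-like array (nearest other 3.81), Itga1 at 3.27 on an ES-like array (nearest 3.10), Gldc at 5.43 on a fibroblast-side array (nearest 4.99) and Mia at 4.35 on a fibroblast-side array (nearest 3.97). All but Gldc lay below 5.

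The side difference itself differed between the lines labelled ES and the lines labelled EF, by the limma test of the difference (adjusted p under 0.05), in 68 of 145 named genes and by at least 2-fold in 40 of them. Over all genes the shares were 38.8% and 6.53%. Some of the named genes were picked as the largest in this same contrast, so the counts are partly set by that choice. Values below are the signed difference DAC2 minus DAC8 less the signed difference REF2 minus REF1, in log2 units, so a positive value does not say in which pair the sides lay farther apart. They were positive for Hoxa9 (6.75), Hoxa10 (5.80), Reln (3.76), Dgkk (3.41), Gulp1 (3.34), Hoxa7 (3.24), Hoxa5 (3.23), Col6a3 (2.86), Hoxa11 (2.81) and Cox7b2 (2.70). Smaller positive values were those of Cdx2 (1.55), Slc7a3 (1.42), Igf2 (1.42), Gjb5 (1.28), Uty (1.27), Lin28a (1.24), Acan (1.23) and Ifitm1 (1.20). They were negative for Eif2s3y (-8.25), Gpr15lg (-5.82), Glrx (-4.49), Stxbp6 (-4.10), Mia (-4.08), Serping1 (-3.97), Fos (-3.52) and Sox17 (-2.80). Selenop (-3.91), called in the same test, is one of the genes with opposite signs in the pairs. Smaller negative values were those of Xist (-1.96), Piwil2 (-1.94), Pdgfra (-1.82), Fstl1 (-1.65), Psmb9 (-1.63), Isg15 (-1.59), S100a6 (-1.31) and Sycp3 (-1.19). The rest were Egr1 (-1.13), Tpm2 (-1.04), Plk2 (-1.02), Jun (-1.02), Sox2 (-1.01) and Tap1 (-1.01). Each rests on 2 arrays per line.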

How the results depend on the processing

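The counts of genes higher (2176) and lower (2178) stayed within 2040 to 2309 and 1963 to 2277 under other filters, normalizations and summaries of probe sets. With 1 array left out they were 2150 to 2210 and 2165 to 2198. A 4-fold threshold gave 733 and 1160, so higher genes were 38.7% of those counted instead of 50%. Label calls (4412) were 3557 to 3822 with 1 array left out, and pair calls (4145) were 3293 to 3633. With line means as replicates, label calls were 0, and 0 at 2-fold. With the replicate number as a block, calls were 4415 and 4158, and 92 and 698 at 2-fold, so the block moved no count by 1.5 times. No side difference of 145 named genes changed sign under 17 alternatives where the gene was counted as different. In 176 of 2465 comparisons it moved by more than the spread of arrays, most often (52 genes each) without DAC2 or without REF2, and in 34 genes with the mean of probe sets. Of the sex chromosome genes, 1 of 3 was counted, without REF2 all 3 were, and without DAC2 there were 2. Levels below 5 limit the size of 1473 of the counted differences.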

Other observations

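Probe sets with no gene name in the platform's table followed the named ones in number: 4350 passed the filter, of which 913 were higher and 923 lower on the ES-like side. Of 1518 further probe sets at 5 or above of genes counted as different, 1072 differed at least 2-fold with the same sign and 89 had the opposite sign, 11 of them by at least 2-fold. The genes of these 11 include Aarsd1 (1.26 and -2.81), Flt1 (1.08 and -2.17) and Rgs3 (-2.39 and 1.19), given as the difference of the probe set used and of the other.

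The mean of the arrays labelled iPS was above the midpoint of the side means in 1054 (48.4%) of the genes higher on the ES-like side. It was above the midpoint, towards the fibroblast side, in 932 (42.8%) of the genes lower there. Gpx2 measured 2.90 in the iPS mean, below both sides, and Tdh 7.85, between them.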
